A study of Mus musculus with 8 samples.

Results

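The nuclear-encoded subunits of the 5 complexes of oxidative phosphorylation were followed across 8 liver arrays. Members were the genes named alone by a probe and whose symbol is Ndufa, Ndufb, Ndufc, Ndufs or Ndufv plus a number, Sdha to Sdhd, begins with Uqcr, is Cox4 to Cox7 plus a letter, or begins with Atp5. The rule used symbols and no measured value. It found 79 genes among 19087 on the array, 35 of complex I, 4 of complex II, 8 of complex III, 15 of complex IV and 17 of complex V. Of these, 78 had a value on all 8 arrays and were tested, among 15346 genes. Cox4i2, an alternative form of cytochrome c oxidase subunit 4 known from lung, lacked a value on 1 array and was not tested.

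The animals were male and female C3H/HeN mice, aged 8 weeks when treatment began. One set received recombinant murine IL1-beta, an inflammatory cytokine, at 25 µg/kg by intraperitoneal injection on alternate days over 2 weeks, and the other set received vehicle. Livers were collected 1 h after the final dose, and the 4 groups, female IL1-beta, male IL1-beta, female control and male control, have 2 arrays each. Each array is labelled as holding liver RNA in Cy5 beside a commercial reference RNA pooled from 11 mouse cell lines in Cy3. By these labels every value below is a log2 ratio of liver over that pool. The arrays labelled control went against this, as described below.

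Oxidative phosphorylation takes place in the inner mitochondrial membrane. Complex I accepts electrons from NADH and complex II accepts them from succinate, and both pass them through ubiquinone to complex III. Cytochrome c carries them on to complex IV, which reduces oxygen, and complex V uses the resulting proton gradient to make ATP. Complexes I, III, IV and V also hold subunits encoded in mitochondrial DNA, which are outside the rule used here, whereas complex II is encoded wholly in the nucleus. Several subunits of complex IV come as alternative forms. Cox6a1 and Cox7a2 are the widespread forms that liver uses, Cox6a2 and Cox7a1 are the forms of heart and skeletal muscle, with Cox7a1 also known from brown fat, and Cox6b2 and Cox7b2 are known from testis. Hepatocytes are rich in mitochondria and spend much of their ATP on gluconeogenesis, urea synthesis and protein export.

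On the 4 IL1-beta arrays, liver genes stood far above the cell-line pool. The median of 9 hepatocyte genes was 5.85 and 5.88 in IL1-beta females and 6.02 and 6.24 in IL1-beta males, and all 21 cell cycle genes tested passed as lower than the pool. The arrays labelled control went against their labels. Their hepatocyte medians were -0.34 and -0.31 (labelled female) and 0.17 and 0.30 (labelled male). Xist, which is expressed from the inactive X chromosome of females, read 2.11 and 1.52 on female and -4.32 and -4.36 on male IL1-beta arrays, but -4.94 and -4.57 on arrays labelled female control and 5.40 and 5.78 on arrays labelled male control. Eif2s3y, a Y-linked gene, read -3.39 and -3.95 on female and 2.99 and 3.10 on male IL1-beta arrays. Under the control labels it read 10.03 and 10.80 (female) and -9.17 and -10.56 (male). Y-linked Uty and Kdm5d had the same signs, so these genes and Xist reversed against the IL1-beta arrays of the same sex label. Over the tested genes, arrays labelled female and male control that share a number had r of -0.722 and -0.592. Those that do not had -0.519 and -0.478. On arrays labelled female control, positive values thus lay with the Y-linked genes and negative values with Xist, and the reverse held under the male label. A value called higher in the female label below therefore need not mean higher in females. These values do not name what was hybridised in each channel of the control arrays, and the direction of their ratios is not settled here. The main results that use the control arrays are therefore given as labelled and with the sign turned. The labels say no more of the replicates than that they are biological, so p-values reflect how far the arrays of a group lie apart.

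The promoters of 4 genes are printed because these genes carry the results on alternative subunit forms and on the arrays labelled control. They are the RefSeq windows of build GRCm38.p6, from 250 bases before to 50 bases after the gene's start, written 5′ to 3′ on the gene's strand. Capitals mark matches to the ETS core CCGGAAG or the NRF1 core GCGCATG on either strand. ETS sites are bound by the nuclear respiratory factor NRF2, whose DNA-binding subunit is the ETS-family protein GABPA, and NRF1 is the other classic activator of respiratory chain genes. The windows of Cox7a1, at chr7:30183921-30184220 (plus strand), and of Cox7a2, at chr9:79759804-79760103 (minus strand), belong to the muscle and the widespread form of one subunit. The window of Cox6a1, at chr5:115348909-115349208 (minus strand), belongs to the widespread form of subunit 6a, and Cox6a2 is named only. The window of Uqcr11, the smallest complex III subunit, lies at chr10:80406772-80407071 (minus strand).
Cox7a1: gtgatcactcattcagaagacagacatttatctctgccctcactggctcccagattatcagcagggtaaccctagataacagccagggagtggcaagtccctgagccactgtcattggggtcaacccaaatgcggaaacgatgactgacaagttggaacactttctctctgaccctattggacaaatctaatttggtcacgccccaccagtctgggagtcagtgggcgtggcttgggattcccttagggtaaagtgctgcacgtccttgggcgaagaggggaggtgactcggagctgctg
Cox7a2: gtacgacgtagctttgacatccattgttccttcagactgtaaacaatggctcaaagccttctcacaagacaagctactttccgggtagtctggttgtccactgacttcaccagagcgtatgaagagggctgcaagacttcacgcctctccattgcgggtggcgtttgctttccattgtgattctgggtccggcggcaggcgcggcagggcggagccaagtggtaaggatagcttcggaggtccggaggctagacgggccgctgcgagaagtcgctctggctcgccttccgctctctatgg
Cox6a1: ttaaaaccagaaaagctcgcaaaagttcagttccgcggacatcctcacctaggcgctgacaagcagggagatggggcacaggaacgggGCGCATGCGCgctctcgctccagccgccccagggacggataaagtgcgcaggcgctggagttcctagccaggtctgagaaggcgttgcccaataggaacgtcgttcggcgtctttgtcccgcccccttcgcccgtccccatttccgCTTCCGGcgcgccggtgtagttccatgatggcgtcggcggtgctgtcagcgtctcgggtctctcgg
Uqcr11: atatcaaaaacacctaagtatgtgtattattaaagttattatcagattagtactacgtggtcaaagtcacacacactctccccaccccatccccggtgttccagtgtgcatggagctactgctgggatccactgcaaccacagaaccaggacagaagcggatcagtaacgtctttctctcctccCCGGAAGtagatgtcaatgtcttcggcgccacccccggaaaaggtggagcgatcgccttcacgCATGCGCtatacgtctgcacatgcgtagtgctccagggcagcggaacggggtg

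The promoters of Cox7a1 and Cox7a2 held neither core. They differed in base composition, with 7 CpG dinucleotides in the Cox7a1 window and 20 in the Cox7a2 window. The Cox6a1 window held 32 CpG dinucleotides, an ETS core and 2 NRF1 cores that overlap each other on opposite strands. The Uqcr11 window held 1 core of each kind and 16 CpG dinucleotides. Windows were found for 66 of the 79 members, 71 windows in all. The NRF1 core was in 13 of the 71 windows (18.31%), against 3.91% of 32851 mouse promoter windows. The ETS core was in 16 (22.54%, against 8.86%), and the core of YY1, ATGGCGG, which spans the translation start of many such genes, in 11 (15.49%, against 4.05%). Any of the 3 cores was in 33 member windows (46.48%), against 15.03% of all windows. The member windows had a median of 19 CpG dinucleotides, against 7 in all windows, so CpG content moves with these shares and its part in them was not tested. Among members named below with a window and none of the 3 cores were Ndufa4, Ndufb2, Ndufb4, Cox7b, Cox7c, Atp5g3 and Uqcrfs1. A match describes letters in the window and not a bound site.

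In liver of IL1-beta mice most subunits lay above the reference pool, and every complex took part. Of 78 tested members, 65 were higher and 4 were lower than the pool by limma at an adjusted p of 0.05, and 9 did not pass. Among all 15346 genes, 36.2% were called higher and 42.3% lower, whereas the members' shares were 83.3% and 5.13%. The members' median was 0.91 (log2), and that of all genes was -0.11. The ratio was above 0 on all 4 IL1-beta arrays for 67 members (85.9%, against 37.5% of all genes) and below 0 on all 4 for 4 members (5.13%, against 43.9%). Array by array, the members' median was 0.78 and 0.99 in IL1-beta females and 0.92 and 0.77 in IL1-beta males. These are levels relative to growing cell lines, and in a tissue more mitochondria-rich cells and more RNA per cell cannot be told apart.

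**Figure D1:**
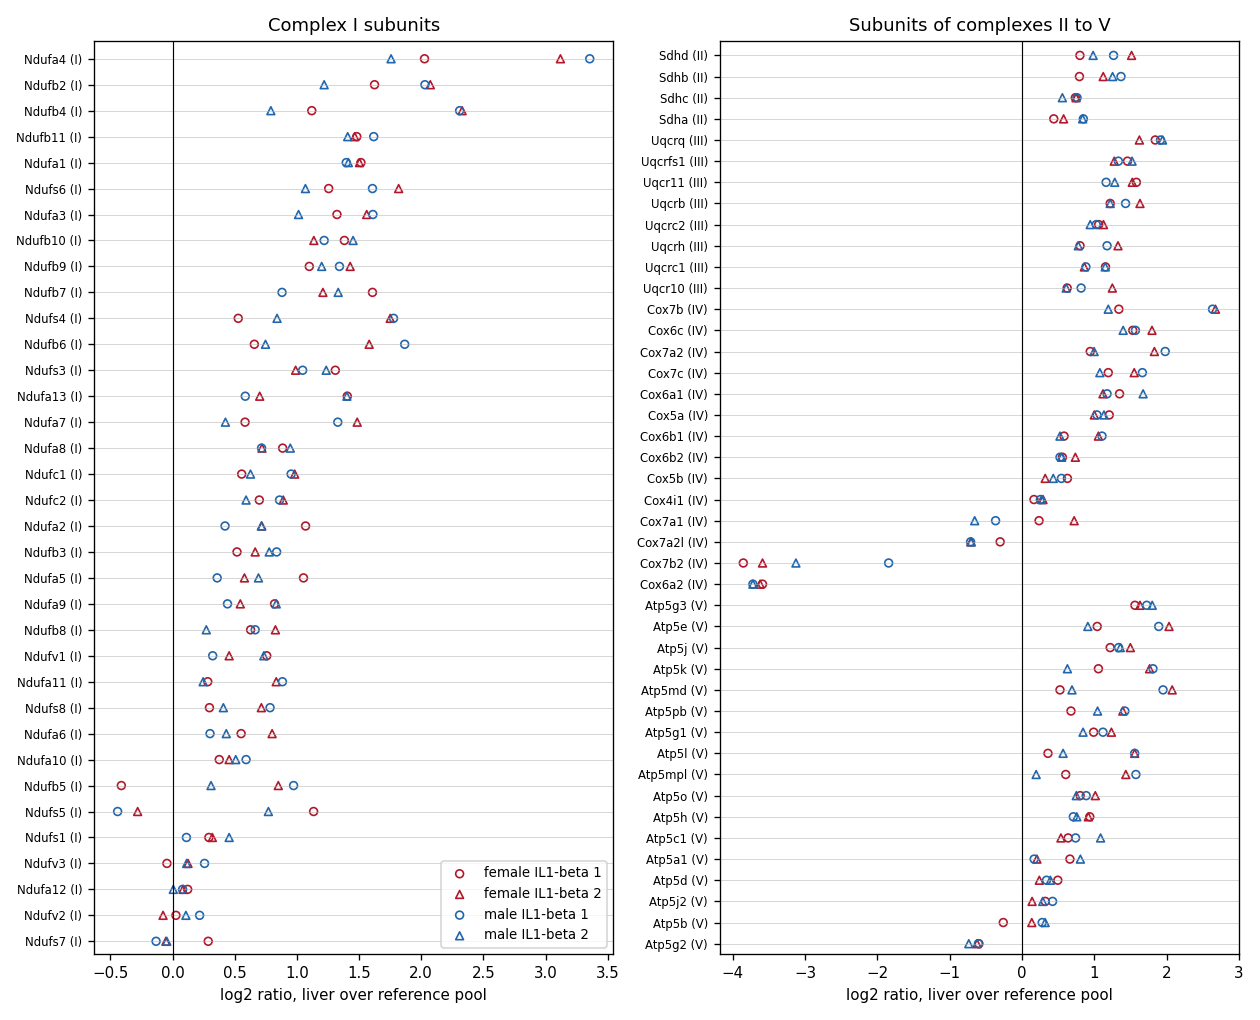
Log2 ratio of liver over the reference pool on each of the 4 IL1-beta arrays for the 78 tested subunits, by complex and ordered by mean within it. Circles and triangles are arrays 1 and 2, red female and blue male. Most points lie right of 0, Cox6a2 and Cox7b2 lie at -1.84 or lower on every IL1-beta array, and circles and triangles change sides between the sexes for members such as Ndufa4 and Cox7b.

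Complex I, the entry point for NADH, had 29 of 35 members above the pool and none below it, with a median of 0.76. Ndufa4, first described in complex I and since assigned to complex IV, had the highest ratio of all members. It read 2.03 and 3.12 in IL1-beta females and 3.36 and 1.76 in IL1-beta males, a mean of 2.56 ± 0.28 (log2, SE, n = 4 arrays, limma adjusted p = 0.000105). Its arrays differed by more than 1 within each sex and overlapped between the sexes. Ndufb2, a membrane-arm accessory subunit, read 1.62 and 2.07 on female and 2.03 and 1.22 on male IL1-beta arrays. Ndufb4, of the same arm, read 1.12 and 2.33 on female and 2.31 and 0.79 on male IL1-beta arrays. All 4 arrays were above the pool for both genes, with the same pair of arrays high. Other accessory subunits were more even. Ndufa1, a small protein of the membrane arm needed for assembly, read 1.51 and 1.50 on female and 1.40 and 1.41 on male IL1-beta arrays, and Ndufb11, of the same arm, read 1.48 and 1.46 on female and 1.62 and 1.41 on male IL1-beta arrays. Ndufs4, an accessory subunit whose loss in mice models Leigh syndrome, read 0.53 and 1.75 on female and 1.78 and 0.84 on male IL1-beta arrays, which is the uneven pattern of Ndufa4. Ndufa13, also known as GRIM-19, had it reversed, at 1.41 and 0.70 on female and 0.58 and 1.40 on male IL1-beta arrays.

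The conserved core subunits of complex I, which bind the flavin and the iron-sulfur clusters or form the quinone site, did not lead the complex. The means of the 6 such members over the IL1-beta arrays were 1.15 for Ndufs3, 0.57 for Ndufv1, 0.55 for Ndufs8, 0.29 for Ndufs1, 0.07 for Ndufv2 and 0.01 for Ndufs7. Ndufs7, which holds the last iron-sulfur cluster before ubiquinone, read 0.29 and -0.05 on female and -0.13 and -0.05 on male IL1-beta arrays, and its mean was -0.07 without female array 1 and -0.01 without male array 2. The 6 members of complex I that did not pass were Ndufs7, Ndufv2, Ndufa12, Ndufv3, Ndufs5 and Ndufb5. A ratio against the pool cannot rank the abundance of one subunit against another, since each probe has its own reference level.

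Complex II, which oxidises succinate and also works in the citric acid cycle, was above the pool in all 4 members. Sdhd and Sdhb, a membrane anchor and the iron-sulfur subunit, averaged 1.14 ± 0.14 and 1.13 ± 0.10 (log2, SE, n = 4 arrays). Sdhc, the other anchor, averaged 0.70 ± 0.09, and Sdha, the flavoprotein, averaged 0.68 ± 0.09. The lowest of their 16 array values, as gene means, was 0.44, for Sdha on the female IL1-beta array 1. The 3 Sdha probes were uneven, with means of 0.42, 0.28 and 1.32 over the IL1-beta arrays. The first read -0.14 on female IL1-beta array 1 and the second -0.32 on female IL1-beta array 2.

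Complex III was above the pool in all 8 members, with a median of 1.21. Uqcrq, a small subunit beside cytochrome b, read 1.84 and 1.62 on female and 1.92 and 1.94 on male IL1-beta arrays and averaged 1.83 ± 0.12 (limma adjusted p = 5.94e-06). Uqcrfs1, the Rieske iron-sulfur protein, averaged 1.40 ± 0.10 and Uqcrc1, a core protein, 1.01 ± 0.11. Uqcr10 was lowest, at 0.83 ± 0.14. The other 4 were Uqcr11 at 1.39, Uqcrb at 1.38, Uqcrc2 at 1.04 and Uqcrh, the hinge protein of cytochrome c1, at 1.02. The complex III arrays lay closer together than those of Ndufa4, as Uqcrfs1 shows with 1.46 and 1.28 on female and 1.33 and 1.52 on male IL1-beta arrays.

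Complex IV was divided, with 9 of 14 tested members above the pool and 3 below it. Cox7b, a small structural subunit, averaged 1.96 ± 0.29 and Cox6c 1.57 ± 0.10. Cox4i1, the common form of the regulatory subunit 4, averaged 0.24 ± 0.10 and did not pass (limma adjusted p = 0.0640), although its 4 arrays lay between 0.17 and 0.29. It passed after median centring (0.35, adjusted p = 0.0156) and with exact zeros kept as values (adjusted p = 0.0460). Cox7a2l, a relative of Cox7a2 that joins complexes III and IV into supercomplexes, was below the pool at -0.61 ± 0.11 (limma adjusted p = 0.00159), but did not pass after quantile normalization (-0.39, adjusted p = 0.0818).

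Some alternative forms of complex IV subunits differed in their ratio to the pool on the IL1-beta arrays. Since each probe has its own reference level, these ratios do not rank the forms within liver. Cox6a1, the widespread form, read 1.35 and 1.12 on female and 1.18 and 1.67 on male IL1-beta arrays. Cox6a2, the muscle form, read -3.59 and -3.62 on female and -3.72 and -3.72 on male IL1-beta arrays, a mean of -3.66 ± 0.85 (limma adjusted p = 0.00559). The 4 arrays nearly coincided, and the standard error is wide because the fit takes 1 spread per gene from all 8 arrays and Cox6a2 scattered on those labelled control. Cox7a2 averaged 1.44 ± 0.20, and its muscle counterpart Cox7a1 averaged -0.02 ± 0.12, with readings of both signs. Cox7b averaged 1.96 against -3.10 ± 0.25 for Cox7b2, the testis form (limma adjusted p = 2.27e-05). Cox7b2 read -3.85 and -3.59 on female and -1.84 and -3.13 on male IL1-beta arrays. Cox6b1 and Cox6b2 were both above the pool, at 0.82 ± 0.16 and 0.59 ± 0.10, but neither passed after quantile normalization (0.56, adjusted p = 0.0789, and 0.41, adjusted p = 0.0672). Cox4i2, untested, read 0.96 and 2.75 on female and 2.78 and 2.44 on male IL1-beta arrays.

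Complex V had 15 of 17 members above the pool, 1 below it and a median of 0.95. The proton-carrying c-ring subunit is made from 3 genes that encode the same mature protein, and these did not move together. Atp5g3 read 1.56 and 1.63 on female and 1.72 and 1.80 on male IL1-beta arrays and averaged 1.68 ± 0.12. Atp5g1 averaged 1.05 ± 0.12. Atp5g2 read -0.60 and -0.62 on female and -0.60 and -0.74 on male IL1-beta arrays and averaged -0.64 ± 0.10 (limma adjusted p = 0.000651). Both Atp5g2 probes lay below 0 on all 4 IL1-beta arrays. Atp5e, a small subunit of the central stalk, averaged 1.47 ± 0.21. Atp5b, the catalytic beta subunit, averaged 0.12 ± 0.12 and did not pass. Its catalytic partner Atp5a1 averaged 0.46, Atp5c1, the rotating gamma subunit, 0.75 and Atp5d, the delta subunit, 0.37. Of the small membrane subunits that help form dimers, Atp5k read 1.06 and 1.76 on female and 1.81 and 0.63 on male IL1-beta arrays. Atp5l read 0.36 and 1.56 on female and 1.56 and 0.57 on male IL1-beta arrays. Both were uneven within each sex in the same way as Ndufa4.

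For Atp5b and 6 other members the probes of one gene differed in sign, so their means hide a split. One Atp5b probe read 1.33 and 0.93 on female and 0.98 and 1.50 on male IL1-beta arrays, whereas the other 2 were below 0 on all 4. One Ndufs5 probe, for an accessory subunit of the membrane arm, read 1.39 and 1.00 on female and 0.98 and 1.18 on male IL1-beta arrays. The other Ndufs5 probe read 0.88 and -1.56 on female and -1.86 and 0.36 on male IL1-beta arrays. In Ndufv3, a small subunit beside the flavin site, 2 probes were below 0 and the third was above it on all 4 IL1-beta arrays. The same held, with 1 probe each way, for Atp5j2, at -0.28 and -0.77 on female and -0.15 and -0.09 on male IL1-beta arrays for one probe and between 0.67 and 1.05 for the other. The probes of Atp5a1, Ndufa12 and Ndufv2 also had means of opposite sign. Which transcript or copy each probe reads was not analysed here.

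Genes that serve the same complexes without belonging to them had calls in both directions, against 36.2% higher and 42.3% lower over all genes. Of 48 assembly factors, 28 were above the pool (58.3%) and 9 below it (18.8%), with a median of 0.52. Coa3, which helps assemble complex IV, stood at 1.59 and Sdhaf4, which helps bring the flavin-bearing subunit into complex II, at 1.58. Lyrm7, which brings the Rieske protein into complex III, stood at -1.84 and Ndufaf7, a methyltransferase for complex I, at -1.64. Of 17 genes of the tricarboxylic acid cycle and pyruvate dehydrogenase, 7 were above (41.2%, near the share of all genes) and 3 below (17.6%), with a median of 0.09. They included Suclg2 at 1.64, Fh1 at 1.57 and Pdhx at 1.47, with Pdha1 at -0.94. Of 78 mitochondrial ribosomal proteins, 29 were above (37.2%, also near that share) and 20 below (25.6%), with a median of 0.12.

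Among 17 nuclear regulators of mitochondrial genes, 7 were above the pool (41.2%) and 6 below it (35.3%), both near the shares of all genes. Ppara, the fatty acid sensing receptor of hepatocytes, stood at 5.06 and Ppargc1a, a coactivator of mitochondrial biogenesis, at 2.37. Nrf1, whose core is searched for above, stood at -1.47, and Pprc1, another coactivator, at -1.65. Cytochrome c itself, Cycs, stood at 1.13, and Atpif1, the inhibitor of the ATP synthase, at -1.88, the largest departure among the 7 remaining subunits and carriers tested.

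The 2 arrays of an IL1-beta group differed in size for these genes about as they did for all genes, but more often in a shared direction. The median absolute difference was 0.305 in the female and 0.272 in the male group, against 0.312 and 0.253 over all genes. Within the female IL1-beta group array 2 read higher than array 1 in 48 of 78 members, and within the male IL1-beta group array 1 read higher than array 2 in 47. Both held for 41 members (52.6%), against 34.9% of all genes, and neither held for 24 (30.8%, against 29.8%). Signed in these directions, the median within-group difference was 0.175 in the female and 0.125 in the male group, against 0.05 and 0.007 over all genes. Ndufa4, Ndufb4, Cox7b and Atp5md, a small subunit of complex V, exceeded 1 in both, as did 1.03% of all genes. Atp5md read 0.52 and 2.08 on female and 1.95 and 0.69 on male IL1-beta arrays. Ndufs5 alone among the members fell below -1 in both differences, and that came from the one of its 2 probes described above. Over the 78 members the 2 differences correlated at r = 0.883, and over all genes at 0.407. This is a description across genes of the same 4 arrays, which are not independent. All 4 complex II genes were higher on female array 2 and male array 1, as were 64.1% of mitochondrial and 69.0% of cytosolic ribosomal protein genes. The part that RNA quality, hybridisation or the animals have in this was not tested.

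**Figure D2:**
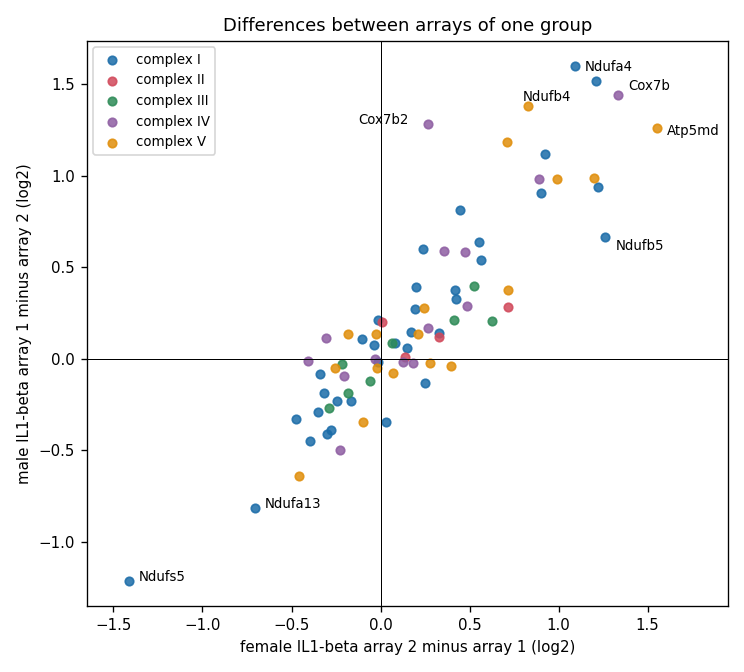
Difference between the 2 arrays of each IL1-beta group for each of 78 subunits, female array 2 minus array 1 (horizontal) against male array 1 minus array 2 (vertical), in log2 units and coloured by complex. The points run along the rising diagonal (r = 0.883), with Ndufa4, Ndufb4, Cox7b and Atp5md past 1 on both axes and Ndufs5 below -1 on both.

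Between the sexes under IL1-beta, none of the 78 subunits passed by limma at an adjusted p of 0.05, and the background was 25 genes, 0.163% of all tested. At an unadjusted p under 0.05 there were 2 members, against 8.28% of all genes. The members' median difference, female minus male, was 0.02. The female and male arrays did not overlap in 20 members (25.6%), 10 each way, against 36.8% of all genes.

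The 2 members with the smallest p were both alternative forms of complex IV. Cox7a1 read 0.24 and 0.72 in IL1-beta females and -0.37 and -0.65 in IL1-beta males, a difference of 0.99 ± 0.24 (log2, SE, n = 2 arrays per sex) that did not pass (limma adjusted p = 0.306). Both female arrays were above both male arrays. Cox7b2 differed by -1.24 ± 0.51 (limma adjusted p = 0.583), with the male array 1 at -1.84 standing apart from the other three. Outside complex IV the largest difference was that of Ndufb5, at -0.42 ± 0.45 (limma adjusted p = 0.923).

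**Figure D3:**
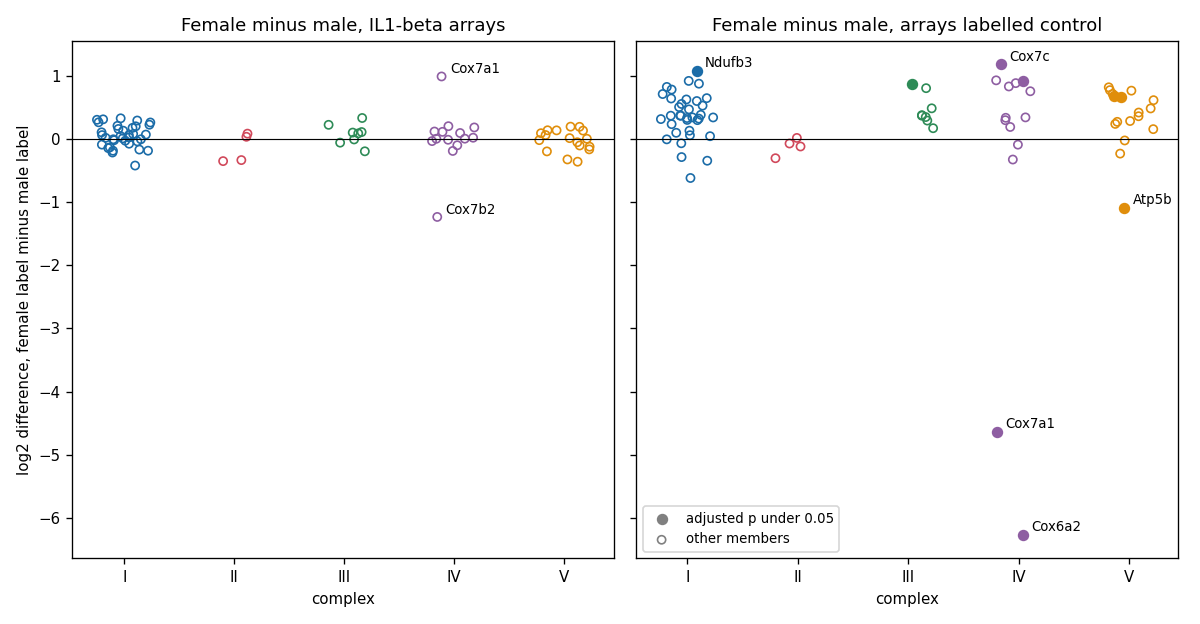
Log2 difference, female minus male label, for each of 78 subunits by complex, on the IL1-beta arrays (left) and on the arrays labelled control (right). Filled points passed limma at an adjusted p of 0.05, none on the left and 9 on the right, where Cox6a2 and Cox7a1 lie lowest and Ndufb3 and Cox7c highest.

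On the arrays labelled control, 6 members were higher and 3 lower in the female than in the male label by limma at an adjusted p of 0.05. That is 7.69% and 3.85% of 78, against 9.3% and 12.1% of all genes. The 6 were Cox7c, Ndufb3, Cox6c, Uqcr11, Atp5j2 and Atp5j, and the 3 were Cox6a2, Cox7a1 and Atp5b. Between these labels the 6 had the sign of the Y-linked genes and the 3 that of Xist. After turning the sign, the directions exchange and the same 9 pass. The members' median difference was 0.35, against 0.04 over all genes. Arrays did not overlap with the female label above in 57 members (73.1%, against 35.3% of all genes), and with the female label below in 10 (12.8%, against 32.2%). In 39 members (50.0%, against 21.6%) both arrays labelled female were above 0 and both labelled male below it, and in 7 (8.97%, against 20.4%) the reverse held. The default fit treats the control arrays as independent. If arrays that share a number hold 1 contrast under both signs, its p-values count that contrast more than once. Another scaling, another set of arrays and pairing by number changed the count. It was 33 after quantile normalization (29 higher, 4 lower), 3 in a fit of the control groups alone and 1 on means of same-number pairs after turning. Quantile normalization put all 8 arrays on a common distribution, which widens the control ratios. Before it, the standard deviation over tested genes was 0.66 to 0.74 on the control and 1.99 to 2.07 on the IL1-beta arrays. The count of 9 also leaned on single arrays, being 7, 2, 1 and 2 without female control 1, female control 2, male control 1 and male control 2, and 5 without either male IL1-beta array.

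Cox7c, a small subunit of complex IV and 1 of the 6 members higher in the female label, read 0.61 and 0.88 on arrays labelled female control and -0.58 and -0.29 on arrays labelled male control, a difference of 1.18 ± 0.27 (limma adjusted p = 0.0238). Ndufb3, of the complex I membrane arm, read 0.30 and 0.67 under the female label and -0.59 and -0.60 under the male label, a difference of 1.08 ± 0.20 (limma adjusted p = 0.0115). Cox6c differed by 0.91 ± 0.20, Uqcr11 by 0.86 ± 0.20, Atp5j2 by 0.68 ± 0.20 and Atp5j, a subunit of the ATP synthase stalk, by 0.67 ± 0.18. If the arrays labelled female and male hold the 2 sexes against each other, each difference counts the same contrast with both signs, and turned and divided by 2 it is -0.59 for Cox7c and -0.54 for Ndufb3. All 8 complex III members and 30 of 35 complex I members had a positive difference as labelled, whereas 1 of 4 complex II members did, none of which passed. Over all genes 52.1% had a positive difference. Sdhc read -0.40 and -0.65 on arrays labelled female control and -0.22 and -0.22 on arrays labelled male control. Complex II thus lay below 0 under both labels, with medians of -0.37 and -0.26 (labelled female control) and -0.23 and -0.14 (labelled male control). Complex I medians were 0.19 and 0.25 under the female and -0.14 and -0.07 under the male label, and those of complex III were 0.24 and 0.32 under the female and -0.16 and -0.06 under the male label. Ndufb4, Ndufa4 and Cox7a2 had differences of 0.92, 0.87 and 0.88 without passing, with standard errors of 0.56, 0.56 and 0.41 to which their uneven IL1-beta arrays contribute. Uqcrq missed the threshold narrowly, at 0.80 ± 0.23 (limma adjusted p = 0.0501).

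Other mitochondrial genes are given beside these values. Of 48 assembly factors, 4 were higher in the female label (8.33%, against 9.3% of all genes) and none lower, with a median of 0.44, namely Ttc19, Pet100, Cox15 and Ecsit, at 0.71 to 0.93. Of 78 mitochondrial ribosomal proteins, 5 were higher (6.41%) and none lower, with a median of 0.28, so neither share of higher calls exceeded that of all genes. Of 17 tricarboxylic acid cycle and pyruvate dehydrogenase genes, 2 were higher and 3 lower, with a median of -0.42. Pdhx (1.34) and Fh1 (0.83) were higher in the female label, and Idh2 (-1.51), Dlat (-0.85) and Ogdh were lower. A positive difference was found in 81.2% of the assembly factors and 82.1% of the mitochondrial ribosomal proteins, near the 80.8% of the members. It was found in 17.6% of the tricarboxylic acid cycle and pyruvate dehydrogenase genes and in 52.1% of all genes.

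Atp5b went the other way from most of complex V, at -0.54 and -0.98 on arrays labelled female control and 0.41 and 0.25 on arrays labelled male control. The difference was -1.09 ± 0.23 (limma adjusted p = 0.0194). It came mainly from the 2 probes that lay below 0 on the IL1-beta arrays. Those read between -1.49 and -0.65 on arrays labelled female control and between 0.22 and 0.50 on arrays labelled male control, while the third read -0.05 and -0.23 under the female and 0.34 and 0.26 under the male label.

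The 2 largest differences belonged to the muscle forms of complex IV. Cox7a1 read -2.25 and -1.92 on arrays labelled female control and 2.63 and 2.46 on arrays labelled male control, a difference of -4.64 ± 0.24 (limma adjusted p = 0.000106). The 2 arrays of each label lay close together, and the same-number differences were -4.88 and -4.39. Cox6a2 read -5.02 and -0.43 on arrays labelled female control and 5.68 and 1.41 on arrays labelled male control, a difference of -6.27 ± 1.70 (limma adjusted p = 0.0417). Its same-number differences were -10.70 and -1.84, so most of the value came from the arrays numbered 1. Without female control 1 the Cox6a2 difference was -3.97 (adjusted p = 0.148), and without male control 1 it was -4.13 (adjusted p = 0.165). With the sign turned and divided by 2, the differences were 2.32 for Cox7a1 and 3.13 for Cox6a2. Cox7a1 passed in every alternative setting run.

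Muscle, adipocyte and macrophage genes also differed between the control labels, without all following either subunit array by array. The median of 13 other muscle genes was -2.60 and -0.46 on arrays labelled female control and 3.29 and 0.41 on arrays labelled male control. All 13 were higher on male control 1 than on male control 2, and all 13 were lower on female control 1 than on female control 2, as Cox6a2 was. The median of 7 white adipocyte genes was -2.27 and -3.22 on arrays labelled female control and 0.14 and 4.03 on arrays labelled male control. Cox8b, the subunit 8 form shared by muscle and brown fat, read -3.31 and -3.03 on arrays labelled female control and 3.95 and 3.99 on arrays labelled male control. Of the other brown adipocyte genes measured, Cidea read -3.10 and -3.07 under the female and 2.19 and 4.15 under the male label, and Dio2 -2.51 and -2.97 under the female and 0.30 and 4.09 under the male label. Elovl3, a fatty acid elongase that liver also expresses, went the other way, at 2.60 and 1.73 under the female and -2.33 and -1.16 under the male label. Of 9 Kupffer cell and macrophage genes, 7 passed as lower in the female label, with medians of -1.11 and -0.73 under the female and 0.90 and 0.62 under the male label. On the IL1-beta arrays the muscle medians were -1.62 and -0.92 (female) and -1.08 and -1.29 (male), and the white adipocyte medians 1.04 and 1.02 (female) and 0.77 and 0.76 (male). The part of muscle or fat tissue in the Cox6a2 and Cox7a1 values was not tested. The members' own medians stayed small on the same arrays, at 0.21 and 0.26 (labelled female control) and -0.18 and -0.08 (labelled male control).

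**Figure D4:**
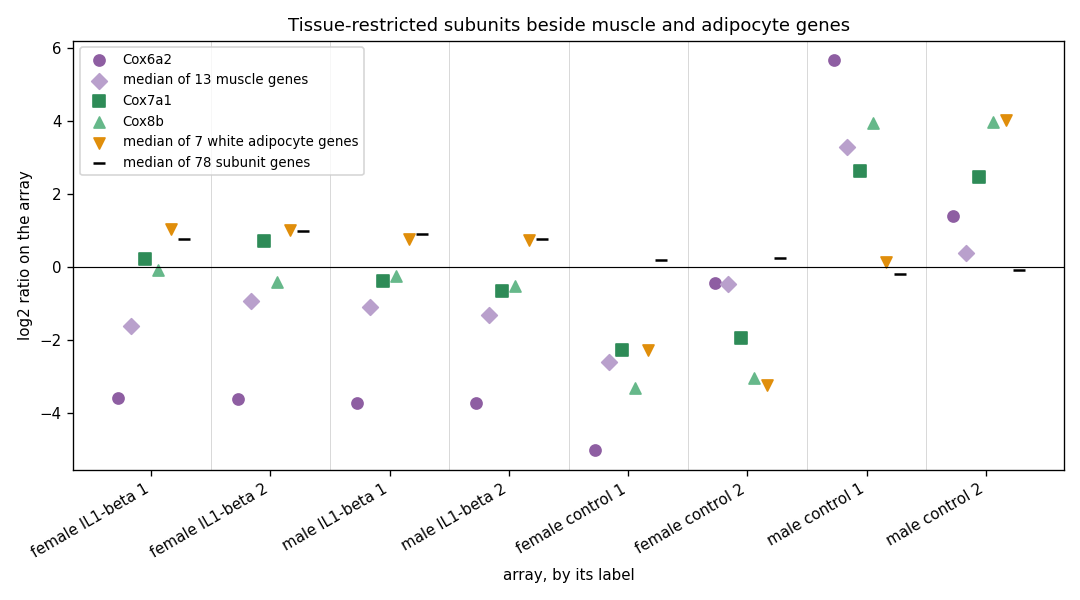
Log2 ratio on each of the 8 arrays for Cox6a2, Cox7a1 and Cox8b, beside the medians of 13 muscle genes, 7 white adipocyte genes and the 78 tested subunits. On the arrays labelled control, Cox6a2 and the muscle median are farthest from 0 on the arrays numbered 1, while Cox7a1 and Cox8b are about equal on both arrays of a label.

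Over the members, same-number arrays labelled female and male control correlated at r = -0.935 and -0.554. Without the tissue-restricted forms Cox6a2, Cox7a1, Cox6b2 and Cox7b2 these values were -0.507 and -0.13 over 74 genes, which all share the same arrays. Arrays of different numbers had r of 0.053 (female 1 with male 2) and -0.442 (female 2 with male 1) over these 74 genes. The 2 arrays labelled female control correlated at 0.674 over the same 74 genes and the 2 labelled male control at 0.587.

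The IL1-beta contrast itself sets arrays with a liver profile against arrays without one. As labelled and averaged over the sexes, 59 of 78 members were higher and 3 lower under IL1-beta than in control by limma, against 31.6% and 37.6% of all genes, with a median of 0.88. With the control sign turned, 61 were higher and 4 lower. The counts by sex are given as labelled only. In females 36 were higher and 2 lower (background 25.8% and 31.4%), and in males 56 were higher and 3 lower (background 29.4% and 32.1%). The members' control medians in these contrasts were 0.21 and 0.26 under the female and -0.18 and -0.08 under the male label. The counts of 36 and 56 thus depend on the sign of the control arrays and are not compared between the sexes. What IL1-beta did to these genes and what sets the control arrays apart cannot be told apart.

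The interaction of sex and IL1-beta, as labelled, passed for 2 of 78 members, 1 above and 1 below 0, against 8.61% and 5.65% of all genes. After quantile normalization, which widens the control ratios as described above, 12 passed, 2 above and 10 below 0. Cox7a1 had an interaction of 5.62 ± 0.35 (limma adjusted p = 0.000273) and Ndufb3 one of -1.30 ± 0.28 (limma adjusted p = 0.0273). The Ndufb3 interaction lost its call with a replicate block (adjusted p = 0.0556) and without any 1 array other than female control 1 (adjusted p between 0.0506 and 0.0870). With the control sign turned it was 0.86 (adjusted p = 0.150) and that of Cox7a1 was -3.65 (adjusted p = 0.00463). In both, the larger share came from the arrays labelled control. Against the control difference turned and divided by 2, none of the 78 passed, and 32 of all genes did (0.209%), with 5 members at an unadjusted p under 0.05. The smallest p were those of Cox7a1, at -1.33 ± 0.27 (limma adjusted p = 0.179), and Atp5b, at -0.91 ± 0.26 (limma adjusted p = 0.322).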

How the data were processed

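Liver RNA of 8 samples in 4 groups of 2 was measured on Agilent 2-colour arrays. The deposited file gives, for each feature and array, a log10 ratio of both channels, which per the labels hold liver in Cy5 and reference RNA in Cy3. The submitters' processing notes name Agilent Feature Extraction. Its background and dye corrections are not stated there. Signal over background was not analysed here, and the number of arrays limits the precision.

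Multiplying the log10 ratios by 3.32 put them on the log2 scale, and an exact 0 was taken as no measurement. Genes were taken from features with 1 symbol in the platform annotation, 26218 of them with a value on all arrays, and a gene is the mean of its probes (21 of 78 tested members have more than 1). All 79 symbols matched RefSeq. Limma 3.58.1 in R 4.3.3 fitted the 4 group means on 8 arrays and moderated the variances (eBayes, 4 residual and 2.88 prior degrees of freedom). Tests were two-sided, adjusted by Benjamini-Hochberg over 15346 genes at 0.05, and errors are standard errors. The method was tested on simulated data.

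The members, gene lists and tests were chosen with earlier results of these data known. Named members are the 2 highest and 2 lowest of each complex over the pool, the tissue forms, those with the smallest p between the sexes under IL1-beta and in the turned interaction, up to 6 passing per direction on the control arrays, and those whose probes differ in sign. Others, such as Cox7a2l, Ndufb4, Ndufb5, Atp5md, Sdhaf4 or the core subunits of complex I, were added for their role or after their values were seen. Same-number female and male arrays deviated in opposite directions (r = -0.407 under IL1-beta and -0.431 in control over all genes). The default fit therefore did not pair the samples by number. Whether the numbers pair the control arrays cannot be told from this, since their ratios run in opposite directions under the 2 labels. Alternatives were other scalings, probe rules, filters, eBayes settings, samples, blocks and thresholds, and leaving out each array. A crossed block and the interaction with the halved control difference were added after seeing the data. Promoter motifs were searched with Python 3.11.15 on both strands.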

Additional observations from a re-analysis of the deposited data

Results flagged for a closer look

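As labelled, 2 subunits differed between the sexes in their IL1-beta contrast by limma's interaction term. The interaction was 5.62 for Cox7a1 (female 2.57 ± 0.24, male -3.06 ± 0.24, IL1-beta minus control) and -1.30 for Ndufb3 (female 0.10 ± 0.20, male 1.40 ± 0.20). Both rest on the arrays labelled control, whose direction is not settled, and neither passed against the control difference turned and divided by 2.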

How the results depend on the processing

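Channel intensities were not analysed here, so it is unknown which ratios come from dim spots. Of 78 members, 69 passed over the pool, with 39 at a 2-fold minimum and 66 to 69 without one array. There were 66 higher and 4 lower after median centring (which shifts all genes by up to 0.143, log2) and 54 and 3 after quantile normalization. The sex difference under IL1-beta stayed at 0 members in every setting run, 0 to 0 without one array. On the control arrays, 9 members passed by default, 33 after quantile normalization (29 higher, 4 lower), 3 in a fit of the compared groups, 1 on means of same-number pairs after turning, 17 at an adjusted p under 0.10, 5 at a 2-fold minimum and 1 to 7 without one array. The averaged IL1-beta effect had 62 members, 35 after quantile normalization, 39 at a 2-fold minimum and 55 to 59 without one array. The interaction had 2 members, 12 after quantile normalization (2 higher, 10 lower), 6 at an adjusted p under 0.10, 1 with the control sign turned, 0 when the turned control difference was also divided by 2, and 1 to 2 without one array.

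With a replicate block, 1 member passed the interaction, 6 the control difference, 68 the ratio over the pool, 59 the IL1-beta effect and 0 the sex difference under IL1-beta. A crossed block, added after seeing the data, gave 9, 70 and 0 for the control difference, the ratio over the pool and the sex difference under IL1-beta.

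Signs changed over the pool for members near 0. Without one array Ndufs7 ranged from -0.0715 to 0.0986, Ndufs5 from -0.0581 to 0.649 and Cox7a1 from -0.137 to 0.106, with signs changed without female IL1-beta 1 or male IL1-beta 2. Cox7a1 was 0.0916 after median centring and 0.0018 after quantile normalization. Turning the control arrays gave 6.27 for Cox6a2, 4.64 for Cox7a1, 1.09 for Atp5b, -1.18 for Cox7c, -1.08 for Ndufb3, -0.91 for Cox6c, -0.86 for Uqcr11, -0.68 for Atp5j2 and -0.67 for Atp5j. The interaction became -3.65 for Cox7a1 and 0.86 for Ndufb3, and -1.33 and 0.32 with the turned difference divided by 2. Over 53 results of 38 single members run under the alternatives, 947 values kept direction and call, 97 lost the call, 7 gained it and 21 changed sign. The cause of these changes was not tested, beyond the turning itself. A fit of only the groups compared equals the default for the averaged effect and the interaction.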
